A study of Mus musculus with 11 samples.

Results

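The miR-30 family is a group of microRNAs (miRNAs), short RNAs that repress messenger RNAs, and its values were followed in the livers of mice with short telomeres, with and without the tumour suppressor p53. Members were chosen by name, as the 5 main 5p arms from miR-30a to miR-30e and 5 of their 3p arms, without miR-30b-3p, which gave 10 of the 1281 miRNA names in the deposited table, of which 811 had a read in some library. The members are mmu-miR-30a-5p, mmu-miR-30b-5p, mmu-miR-30c-5p, mmu-miR-30d-5p and mmu-miR-30e-5p, and the 3p arms mmu-miR-30a-3p, mmu-miR-30c-1-3p, mmu-miR-30c-2-3p, mmu-miR-30d-3p and mmu-miR-30e-3p, written below without the species prefix. Small RNA of liver was sequenced in untreated G4 telomerase-knockout mice of C57/B6 strain background, all with short telomeres. The study asked which miRNAs depend on p53. One group, G4 p53+/+, had intact p53 (5 libraries, numbered 1 to 5), and the other, G4 p53-/-, had none (6 libraries, numbered 6, 7, 8, 10, 11 and 12). Age and sex are not given in the labels, and livers with intact telomeres are not analysed here, so every value belongs to the short-telomere state. Whether every library is another animal is not in the labels, and the p-values therefore cover only the spread among these libraries, which may be partly technical.

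Each miRNA hairpin can release a 5p and a 3p strand, and a strand finds its targets mainly through its seed, the bases near its 5′ end. The 5p strands of the miR-30 family share a seed and are therefore thought to bind overlapping sets of messenger RNAs, whereas the 3p strands carry other seeds. The family is abundant in liver, kidney and heart, and is reported to restrain fibrosis and epithelial-to-mesenchymal transition, to repress p53 itself in heart muscle cells and, together with miR-29, to repress the cell-cycle factor B-Myb in senescent cells.

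Of the 10 members, 7 matched a mature sequence in the RefSeq table (GRCm38.p6). They are shown because which strands share a seed, and how few bases set some members apart, bear on what the counts can separate. Capitals mark the seed, bases 2 to 8 from the 5′ end.
miR-30a-5p: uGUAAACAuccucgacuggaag
miR-30c-5p: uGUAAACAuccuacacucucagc
miR-30e-5p: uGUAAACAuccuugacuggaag
miR-30a-3p: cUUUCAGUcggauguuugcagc
miR-30e-3p: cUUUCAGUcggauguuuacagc
miR-30c-1-3p: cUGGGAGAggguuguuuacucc
miR-30c-2-3p: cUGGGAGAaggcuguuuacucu

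The 5p strands shown have the seed GUAAACA, miR-30a-3p and miR-30e-3p have UUUCAGU, and both miR-30c 3p strands have UGGGAGA. Positions are counted from 1 at the 5′ end. Between miR-30a-5p and miR-30e-5p the only substitution was C13U, and between miR-30a-3p and miR-30e-3p it was G18A. miR-30c-1-3p and miR-30c-2-3p differed at 3 of 22 bases. How reads with a sequencing error were assigned between such near-identical members is not given in the sources used here. Among all other names with a RefSeq sequence in the table, miR-384-5p (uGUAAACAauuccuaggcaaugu) carried a seed of the family, and it had 0 reads in all 11 libraries.

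The 4 hairpins whose sequences were matched are shown with both mature arms in capitals, because the results below compare the arms within a hairpin.
Mir30a: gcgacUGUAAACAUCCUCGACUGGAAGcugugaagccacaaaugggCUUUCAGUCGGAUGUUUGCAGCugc
Mir30e: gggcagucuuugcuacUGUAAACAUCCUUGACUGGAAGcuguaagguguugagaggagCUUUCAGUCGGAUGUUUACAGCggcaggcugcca
Mir30c-1: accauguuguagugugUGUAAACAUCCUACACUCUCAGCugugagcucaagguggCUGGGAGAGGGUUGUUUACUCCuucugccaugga
Mir30c-2: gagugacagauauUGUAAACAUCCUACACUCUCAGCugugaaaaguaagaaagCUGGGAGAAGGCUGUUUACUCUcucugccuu

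The 6 hairpins lie in pairs at 3 loci of GRCm38, annotated here with GENCODE M21. Mir30a (chr1:23272269-23272339, plus strand) overlaps no other gene, and Mir30c-2 (chr1:23291701-23291784, plus strand), 19432 bases further on, overlaps an exon of the long noncoding RNA Gm27028. Mir30c-1 (chr4:120769534-120769622) and Mir30e (chr4:120772606-120772697) lie on the minus strand, 3072 bases apart, in the same orientation within an intron of Nfyc, which encodes a subunit of the transcription factor NF-Y. Mir30b (chr15:68337415-68337510) and Mir30d (chr15:68341208-68341289) lie 3793 bases apart on the minus strand and overlap exons of noncoding transcripts. The 5p strand of both miR-30c hairpins is the same, so miR-30c-5p is one count for 2 loci on different chromosomes, and only the 3p strands tell the loci apart. Mir30f lies on the strand opposite Mir30e, and miR-30f had 3 reads in all libraries together.

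Libraries held between 1905609 and 6682492 miRNA counts, so that 3 counts, the limit that a count of 0 allows, stood for 0.449 to 1.57 CPM, the count scaled to a fixed library total. Every member had reads in every library. p53+/+ libraries 1 and 2, at 1965468 and 1905609 counts the shallowest, had scores of -10.5 and -13.0 on the first principal component of all tested miRNAs, beside -0.77 to 5.97 for the rest. On the second component p53-/- library 6 was the one far from the rest, at -14.4. Levels below are normalised CPM, which are CPM after TMM scaling, a correction for composition. They compare a member between libraries more safely than one member with another, since ligation and amplification favour some sequences.

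The family's 5p strands were among the most abundant miRNAs of these livers, and miR-30a-5p and miR-30d-5p dominated them. Of the 388 miRNAs tested, miR-30a-5p ranked 7 and miR-30d-5p ranked 8 by mean level over all libraries, at 19874 ± 3994 and 17544 ± 2314 CPM (SD, n = 11). Their ranges overlapped, although miR-30a-5p was the higher of the 2 in 10 of 11 libraries. miR-30c-5p followed at 4049 ± 903 CPM and miR-30e-5p at 1243 ± 504 CPM, with no overlap between those 2 or with the members above. miR-30a-3p (956 ± 132 CPM) overlapped in range with miR-30e-5p above it and with miR-30c-2-3p (792 ± 129 CPM) below it. miR-30b-5p (243 ± 44.0 CPM) and miR-30e-3p (215 ± 46.2 CPM) did not separate from each other, with miR-30b-5p higher in 5 of 11 libraries. miR-30c-1-3p (22.2 ± 5.10 CPM) and miR-30d-3p (6.41 ± 1.74 CPM) were the lowest, each below every library's value of the member before it. The 2 arms of the Mir30d hairpin thus stood at opposite ends of the family, and the level of miR-30d-5p was 2737-fold that of miR-30d-3p.

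**Figure D1:**
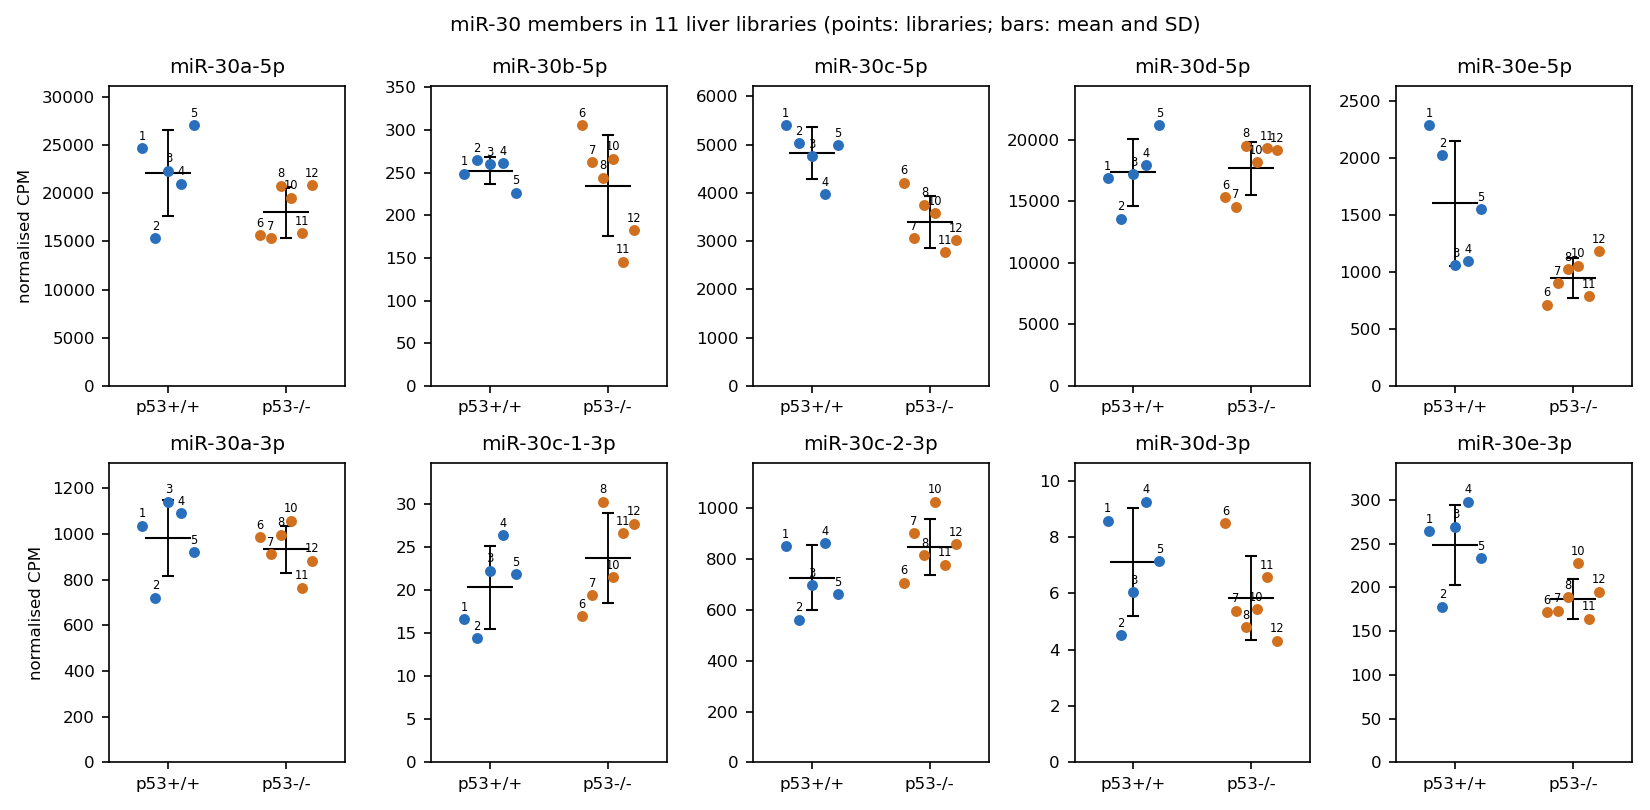
Normalised CPM of the 10 members, each on its own vertical axis from 0, in the 5 p53+/+ libraries (blue) and 6 p53-/- libraries (orange). Points are libraries with their numbers, and bars give the mean and SD. miR-30c-5p and miR-30e-5p have the lowest p-values of the members in edgeR, but the genotypes overlap for every member and none passed after adjustment. p53+/+ libraries 1 and 2 are the highest for miR-30e-5p.

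The main comparison asked whether family members differed between livers with and without p53. None of the 10 members passed in edgeR's quasi-likelihood test after Benjamini-Hochberg adjustment over all 388 miRNAs, beside 0.258% of all miRNAs called lower and 0% called higher. At an unadjusted p under 0.05, 3 members were lower in p53-/- livers (miR-30c-5p, miR-30e-5p and miR-30e-3p) and 0 were higher, where the same rule took 9.02% of all miRNAs lower and 8.25% higher. DESeq2, an alternative test, called miR-30c-5p and miR-30e-5p lower and no member higher among the 9 members it gave an adjusted p, all but miR-30d-3p. Of the 250 miRNAs with an adjusted p in DESeq2, 3.6% were called lower and 3.2% higher. limma-voom and the exact permutation test called 0 members lower after adjustment over all miRNAs. Log2 fold changes, given as p53-/- minus p53+/+, were below 0 for 7 of 10 members and for 51% of all miRNAs. The median was -0.20 over the members and -0.01 over all miRNAs. The ranges of the 2 genotypes overlapped for every member, while over all miRNAs 1.03% were lower and 1.29% higher with no overlap. In bulk liver, fewer cells of a type and less RNA per cell cannot be told apart in any of these values.

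Among the 5p strands, miR-30c-5p had one of the 2 lowest p-values of the family. It stood at 5402, 5031, 4755, 3967 and 4981 CPM in p53+/+ libraries 1 to 5. In p53-/- libraries the lowest value was 2776, the median 3319 and the highest 4207 CPM. Only p53-/- library 6, at 4207 CPM, lay above the lowest p53+/+ library, number 4, so 5 of 6 p53-/- libraries were below the whole p53+/+ range. The means were 4827 ± 534 (SD, n = 5) and 3400 ± 540.5 CPM (SD, n = 6), and edgeR put the log2 fold change at -0.51 with a standard error of 0.15 and a 95% interval from -0.82 to -0.19. The adjusted p was 0.174 in edgeR and 0.0323 in DESeq2. In a two-sided exact permutation test of log2 CPM, unadjusted, p was 0.00866, where the 462 splits allow no p below 0.00216. Adjusted over all 388 miRNAs this exact p was 0.140. Without p53+/+ libraries 1 and 2 the log2 fold change was -0.38 (adjusted p = 0.385 in edgeR).

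miR-30e-5p, which differs from miR-30a-5p at a single base, had the lowest log2 fold change of the family, and that value rested largely on the 2 libraries that stood apart. It stood at 2286, 2024, 1057, 1096 and 1547 CPM in p53+/+ libraries 1 to 5, and at 713 CPM at the lowest, 961 at the median and 1180.4 at the highest in p53-/- libraries. p53+/+ libraries 1, 2 and 5 were above every p53-/- library, but libraries 3 and 4 were below p53-/- library 12, the highest of its group. edgeR gave a log2 fold change of -0.76 with a standard error of 0.22 and a 95% interval from -1.24 to -0.29. The adjusted p was 0.174 in edgeR and 0.0335 in DESeq2, and the unadjusted two-sided exact permutation p was 0.0152. Without libraries 1 and 2 it was -0.35 (adjusted p = 0.421 in edgeR). Those 2 libraries were also the shallowest. p53-/- library 11, the shallowest of its group at 2202415 counts, had a miR-30e-5p level of 788 CPM. The part of depth in these values was not tested.

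For the 2 most abundant members the values lay differently. miR-30a-5p stood at 24699, 15321, 22372, 21011 and 27086 CPM in p53+/+ libraries 1 to 5. Its lowest p53-/- value was 15358, the median 17712 and the highest 20870.3 CPM. p53+/+ library 2 was below all other libraries of either genotype, and the other 4 p53+/+ libraries were above every p53-/- library. On the log2 scale the difference was -0.29 (standard error 0.16, 95% interval from -0.65 to 0.06, edgeR adjusted p = 0.393), and without p53+/+ library 2 it was -0.44 (edgeR adjusted p = 0.233). It was smaller without p53+/+ library 1 (-0.243, edgeR adjusted p = 0.616) or 5 (-0.245, edgeR adjusted p = 0.460). The same held without p53-/- library 11 (-0.243, edgeR adjusted p = 0.473). miR-30d-5p stood at 16894, 13592, 17199, 17928 and 21206 CPM in p53+/+ libraries, and between 14588 and 19545 CPM, with a median of 18678, in p53-/- libraries. Its groups lay over each other, and the log2 difference of 0.03 (standard error 0.14, edgeR adjusted p = 0.954) turned sign under 8 of 22 alternatives. Its 95% interval ran from -0.28 to 0.34, so a moderate change in either direction was not excluded. miR-30b-5p, from the same locus as miR-30d-5p, ranged from 227 to 265 CPM in p53+/+ libraries and from 146 to 306 in p53-/- libraries. Its lowest values were in p53-/- libraries 11 and 12, and edgeR gave a log2 difference of -0.11 (standard error 0.18, adjusted p = 0.792) that turned sign without library 11. With only the 3 p53-/- libraries whose HA number, an unexplained number in the descriptions, is above 500, it was -0.38 (edgeR adjusted p = 0.603).

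**Figure D2:**
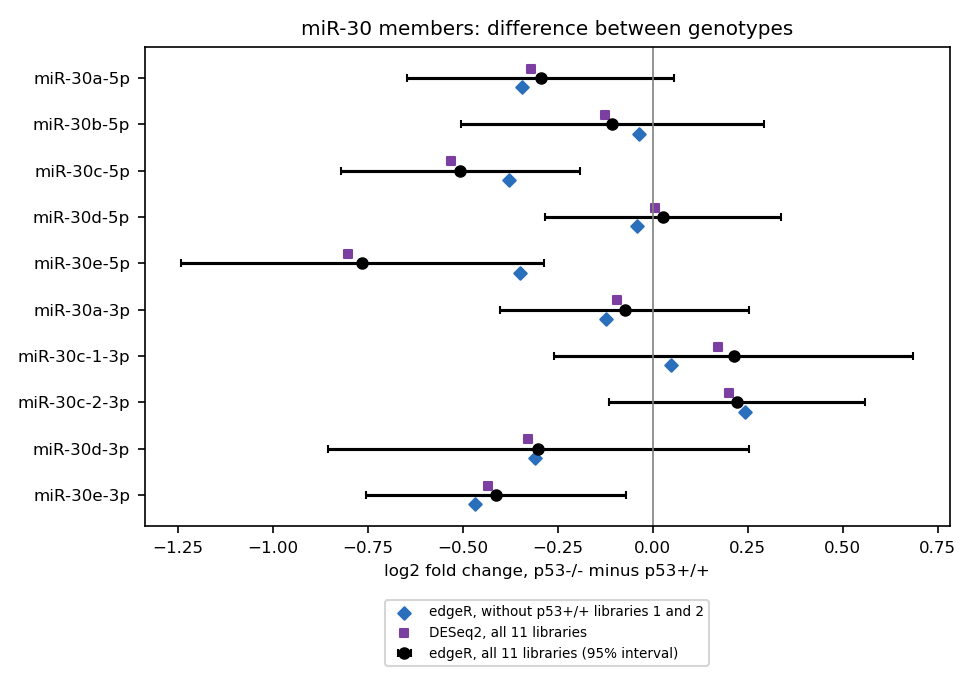
Log2 fold change of each member, p53-/- minus p53+/+ (horizontal axis), by edgeR with 95% intervals (black circles), by edgeR without p53+/+ libraries 1 and 2 (blue diamonds) and by DESeq2 (purple squares). The intervals of miR-30c-5p, miR-30e-5p and miR-30e-3p end below 0, and leaving out libraries 1 and 2 moves miR-30e-5p from -0.76 to -0.35.

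Of the 3p strands, miR-30e-3p was the one at an unadjusted p under 0.05. It stood at 264, 178, 269, 298 and 234 CPM in p53+/+ libraries 1 to 5, against a lowest value of 164, a median of 181 and a highest of 227 in p53-/- libraries. All p53+/+ libraries but number 2 were above every p53-/- library. The log2 difference was -0.41 with a standard error of 0.16 and a 95% interval from -0.76 to -0.07, and the adjusted p was 0.190 in edgeR and 0.0671 in DESeq2. Unlike that of the 5p strand of the same hairpin, this value did not shrink without p53+/+ libraries 1 and 2, where it was -0.47 (adjusted p = 0.272 in edgeR). The 2 libraries moved it in opposite directions, to -0.38 without library 1 alone and to -0.54 without library 2 alone. Without p53-/- library 11 it was -0.35. The difference between the strands' changes was not called in the arm ratio test given below.

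Both miR-30c 3p strands had fold changes above 0, opposite in sign to that of the 5p strand they share. miR-30c-2-3p stood at 849, 561, 696, 862 and 661 CPM in p53+/+ libraries 1 to 5. In p53-/- libraries it ranged from 707 to 1025 CPM with a median of 836, and all 6 were above the p53+/+ median. The log2 difference was 0.22 (standard error 0.16, 95% interval from -0.11 to 0.56, edgeR adjusted p = 0.516), and without p53+/+ library 2 it was 0.11 (edgeR adjusted p = 0.731). miR-30c-1-3p, with 32 to 199 reads a library, was at 20.3 ± 4.77 (SD, n = 5) and 23.8 ± 5.24 CPM (SD, n = 6), with the log2 difference at 0.21 (standard error 0.22, edgeR adjusted p = 0.645) and at 0.05 without p53+/+ libraries 1 and 2. It was also lower without p53+/+ library 2 alone (0.08) or p53-/- library 8 (0.09) or 12 (0.11). miR-30a-3p was at 982 ± 168 and 933 ± 104 CPM, a log2 difference of -0.07 (standard error 0.15, edgeR adjusted p = 0.814). miR-30d-3p, with 10 to 55 reads a library, ranged from 4.51 to 9.25 CPM in p53+/+ and from 4.32 to 8.48 in p53-/- libraries, a log2 difference of -0.30 (standard error 0.26, edgeR adjusted p = 0.580).

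The ratio of the 2 arms of a hairpin within a library needs no scaling between libraries, and it was compared over the 124 hairpins with both arms measured. No miR-30 hairpin passed in limma after adjustment over those hairpins, and none of the 124 did (0% higher, 0% lower). The ranges of the genotypes overlapped for every miR-30 hairpin, beside 1.61% of hairpins higher and 0.806% lower without overlap. At an unadjusted p under 0.05, Mir30c-1 and Mir30c-2 had higher ratios of 3p to 5p in p53-/- livers, where the same rule took 9.68% of hairpins higher and 4.84% lower. For Mir30c-2 the 3p count was 15.7, 11.2, 14.6, 21.7 and 13.3% of the 5p count in p53+/+ libraries 1 to 5. The p53-/- libraries ran from 16.8 to 29.5% with a median of 28.2%. p53-/- libraries 6 and 8 were below p53+/+ library 4, number 8 only just, and the other 4 p53-/- libraries were above all p53+/+ libraries. The log2 difference was 0.74 (standard error 0.23, 95% interval from 0.25 to 1.24, limma adjusted p = 0.184), the hairpin ranked 4 of 124 by p, and the unadjusted two-sided exact permutation p was 0.0108. It was 0.63 without p53+/+ libraries 1 and 2 (adjusted p = 0.296 in limma).

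For Mir30c-1 the ratio was 0.434 ± 0.152% (SD, n = 5) in p53+/+ and 0.721 ± 0.213% (SD, n = 6) in p53-/- livers. The log2 difference was 0.74 (standard error 0.28, adjusted p = 0.233 in limma), and 0.43 without p53+/+ libraries 1 and 2. The 2 miR-30c ratios are not separate observations, since miR-30c-5p is the denominator of both. The level of miR-30c-1-3p was 2.82 ± 0.556% (SD, n = 5) of that of miR-30c-2-3p in p53+/+ and 2.84 ± 0.706% (SD, n = 6) in p53-/- livers, so the balance between the 3p strands of the 2 loci was alike in the means, with overlapping ranges.

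The Mir30e ratio was spread widely among the p53+/+ libraries. The 3p count was 11.6, 8.79 and 15.1% of the 5p count in p53+/+ libraries 1, 2 and 5, below the 16.5 to 24.1% of the p53-/- libraries, whereas p53+/+ libraries 3 and 4 were above them at 25.5 and 27.2%. The log2 difference was 0.32 (standard error 0.29, adjusted p = 0.553 in limma), and it turned to -0.13 without libraries 1 and 2 (adjusted p = 0.823 in limma). Without p53+/+ library 1, 2, 3 or 4 alone it was 0.20, 0.10, 0.48 or 0.51. For Mir30a the ratio was 4.52 ± 0.743% and 5.25 ± 0.776%, a log2 difference of 0.22 (standard error 0.20, adjusted p = 0.553 in limma) that was 0.12 without p53+/+ library 5 (adjusted p = 0.688 in limma). Mir30d, with almost all of its reads on the 5p strand, had ratios of 0.0409 ± 0.00947% and 0.0339 ± 0.0118%, a log2 difference of -0.31 (standard error 0.26, adjusted p = 0.527 in limma).

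**Figure D3:**
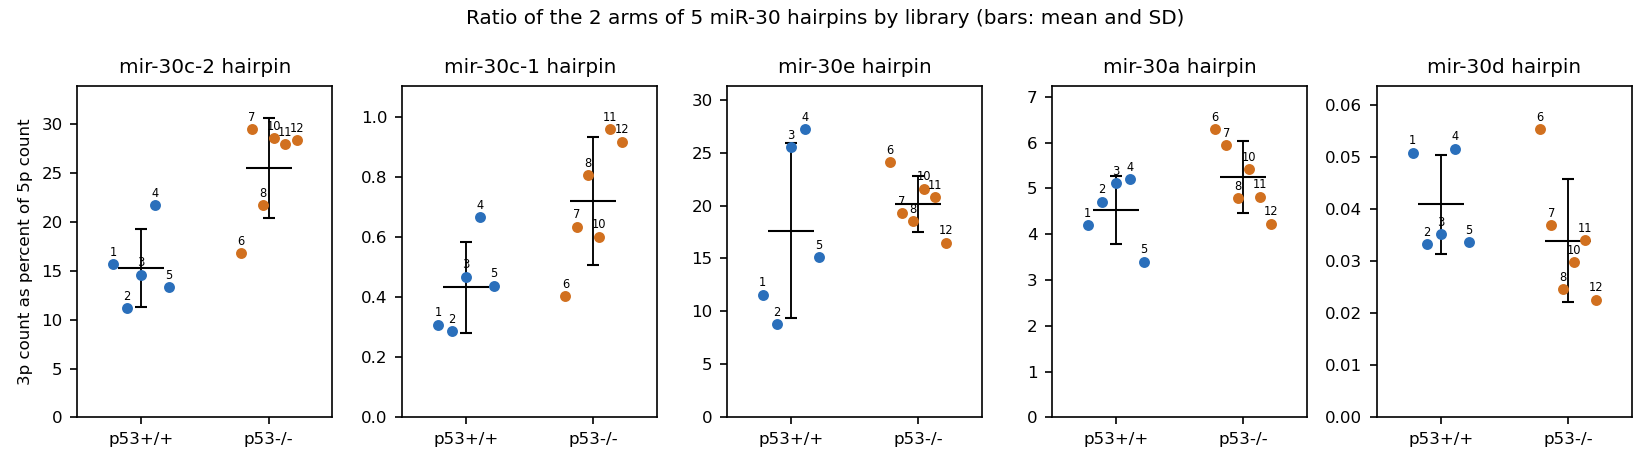
Count of the 3p strand as a percent of the 5p strand of 5 hairpins (vertical axes from 0) in p53+/+ (blue) and p53-/- (orange) libraries, with library numbers, mean and SD. For Mir30c-2 the p53+/+ mean was 15.3% and the p53-/- mean 25.5%, and for Mir30e libraries 1 and 2 lie below all others.

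The family's share of the library was described without a test. Together the 5p strands made up 5.29, 4.21, 4.69, 4.08 and 5.20% of all counts in p53+/+ libraries 1 to 5, and 3.01 to 4.84% with a median of 3.96% in p53-/- libraries. On average this was 4.69 ± 0.550% in p53+/+ (SD, n = 5) and 3.99 ± 0.726% in p53-/- livers (SD, n = 6), -0.70 percentage points apart with overlapping ranges. The lowest share, 3.01% (95% Wilson interval 3.00 to 3.03%, counting error only), was that of p53-/- library 6, in which the hepatocyte miRNA miR-122-5p took 64.0% of counts. With miR-122-5p left out of the total, the 5p strands held 10.3 ± 1.11% in p53+/+ and 9.46 ± 0.914% in p53-/- livers. The 3p strands made up 0.202 ± 0.0273% and 0.197 ± 0.0222% of all counts.

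Within the 5p total, the p53-/- livers had a larger share of miR-30d-5p, and the 2 genotypes did not overlap. The level of miR-30d-5p in CPM had a log2 difference of only 0.03 (edgeR adjusted p = 0.954), so the larger share is not a called rise of this member. miR-30d-5p was 34.1, 37.5, 37.7, 40.5 and 38.5% of the 5p total in p53+/+ libraries 1 to 5. In p53-/- libraries its share ran from 42.3 to 49.7% with a median of 42.9%, highest in library 11. Of all miRNAs set against the same 5p total, 2.84% were higher and 0.258% lower without overlap. miR-30a-5p and miR-30d-5p together made up 87.0% of the 5p total over all libraries. The shares of miR-30a-5p (47.6 ± 3.08% and 44.6 ± 2.25%), miR-30c-5p (10.6 ± 2.00% and 8.53 ± 1.71%), miR-30e-5p (3.56 ± 1.46% and 2.34 ± 0.300%) and miR-30b-5p (0.561 ± 0.118% and 0.593 ± 0.189%) overlapped between p53+/+ and p53-/- livers. Shares of one total are not independent, since a lower share of one member raises those of the others.

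Pairs of members were set against each other in each library, as descriptions chosen after values were seen and with no test. miR-30d-5p was 68.4, 88.7, 76.9, 85.3 and 78.3% of miR-30a-5p in p53+/+ libraries 1 to 5, and 91.7 to 121.8% with a median of 94.5% in p53-/- libraries. The ranges did not overlap, and their closest libraries were p53+/+ library 2 at 88.7% and p53-/- library 12 at 91.7%. This is largely the same observation as the larger miR-30d-5p share, since these 2 members made up 87.0% of the 5p total. Relative to miR-30a-5p, 3.36% of all other miRNAs were higher and 0.258% lower without overlap. miR-30e-3p was 25.5, 24.7, 23.6, 27.3 and 25.4% of miR-30a-3p in p53+/+ libraries, and 17.4 to 22.1% with a median of 20.3% in p53-/- libraries. Here too the ranges did not overlap, and p53+/+ libraries 1 and 2 lay within the other p53+/+ libraries. Relative to miR-30a-3p, 0.517% of all other miRNAs were lower and 0.775% higher without overlap. These 2 strands share a seed and differ at a single base.

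The 5p strands of the same hairpins gave another picture. miR-30e-5p was 9.26 and 13.2% of miR-30a-5p in p53+/+ libraries 1 and 2. In p53+/+ libraries 3, 4 and 5 it was 4.72, 5.22 and 5.71%, within or next to the 4.55 to 5.86% of the p53-/- libraries. So the 5p ratio separated libraries 1 and 2 from the other 9, whereas the 3p ratio separated the genotypes. Both ratios were chosen after values were seen, so this contrast is a description only. miR-30b-5p was 1.49 ± 0.312% (SD, n = 5) and 1.37 ± 0.479% (SD, n = 6) of miR-30d-5p, its neighbour in the genome, with overlapping ranges.

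**Figure D4:**
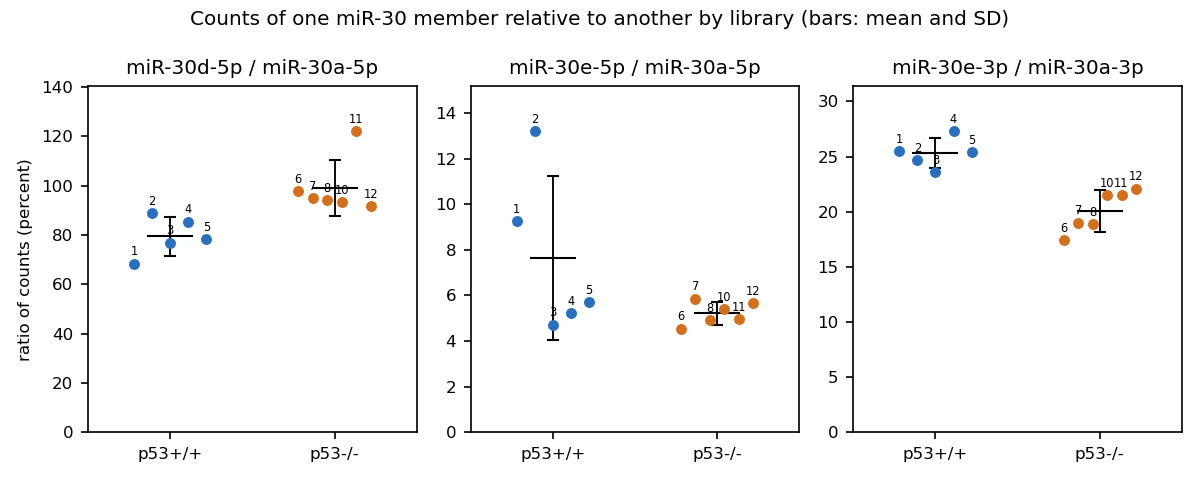
Count of one member as a percent of another (vertical axes from 0) in p53+/+ (blue) and p53-/- (orange) libraries, with library numbers, mean and SD. The genotypes do not overlap for miR-30d-5p against miR-30a-5p or for miR-30e-3p against miR-30a-3p, and libraries 1 and 2 stand apart for miR-30e-5p against miR-30a-5p.

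Members varied between libraries to different degrees. In p53+/+ livers the SD of log2 CPM was largest for miR-30e-5p, at 0.50, and smallest for miR-30b-5p, at 0.09. In p53-/- livers miR-30b-5p had the largest, at 0.40, and miR-30a-3p the smallest, at 0.17. The profile of the 5p total over the 11 libraries, centred on its mean, was closest to that of miR-30a-5p among the members (root mean square difference 0.09 on the log2 scale) and farthest from miR-30e-5p (0.45). The closeness of miR-30a-5p is partly built in, since it makes up 40.8 to 49.9% of that total. The root mean square difference also tends to be smaller for miRNAs that vary little between libraries. Of the 368 other tested miRNAs compared, with a median difference of 0.48, the closest were miR-23b-3p (0.12), miR-345-5p (0.12) and miR-16-1-3p (0.16). Their log2 fold changes were -0.17, -0.32 and -0.04, and none passed in edgeR (adjusted p = 0.547, 0.394 and 0.934). All miRNAs were read from the same libraries, which differ in depth and composition, so such likeness is a description only.

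The miR-29 main arms, known for repressing collagens and reported beside miR-30 as repressors of B-Myb, were taken as a companion list, and 0 of 3 passed in either direction in edgeR or DESeq2, with 1 of 3, miR-29a-3p, lower at an unadjusted p under 0.05. Over all miRNAs the shares were 0.258% lower and 0% higher in edgeR, 3.6% and 3.2% in DESeq2, and 9.02% and 8.25% at the unadjusted p. miR-29a-3p was at 4617 ± 1368 (SD, n = 5) and 3089 ± 614 CPM (SD, n = 6), which edgeR put at a log2 difference of -0.58 (standard error 0.20, adjusted p = 0.174). miR-29c-3p was at -0.35 and miR-29b-3p at -0.01 (adjusted p = 0.460 and 0.991 in edgeR). The median of the 3 was -0.35, beside -0.20 for the miR-30 members and -0.01 for all miRNAs.

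Markers of cell types were set beside the family as summed levels, and in each of the 8 lists the genotypes overlapped. All 5 hepatocyte miRNAs had reads, with sums of 507119 to 706489.9 CPM in p53+/+ and 487704 to 844844 CPM in p53-/- libraries. Stellate and mesenchymal miRNAs (5 of 5 with reads) summed to 4839.8 to 8815 and 5603 to 6627 CPM, endothelial ones (2 of 2) to 6012 to 11013 and 5772 to 10476 CPM, and epithelial and biliary ones (5 of 5) to 809.7 to 2745 and 661 to 2223 CPM. Erythroid miRNAs (5 of 5) summed to 531 to 1407 and 594 to 1347 CPM, and leukocyte miRNAs (5 of 5) to 103 to 161 and 142 to 216 CPM. Pancreas miRNAs (4 of 4) ranged from 2.86 to 410.2 CPM in p53+/+ and from 6.75 to 27.5 CPM in p53-/- libraries, and striated muscle miRNAs (4 of 4) from 4.29 to 45.8 and 4.44 to 40.9 CPM. The pancreas sum of 410.2 CPM was that of p53+/+ library 5, and the next highest, library 2, was at 88.0 CPM. Library 5 was also the highest of all libraries for miR-30a-5p (27086 CPM) and miR-30d-5p (21206 CPM), but for no other member. Library 2, in contrast, was the lowest of all libraries for miR-30a-5p (15321 CPM) and miR-30d-5p (13592 CPM). No defining marker was at 0 in all libraries. The part of cell composition in the miR-30 values was not tested.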

How the data were processed

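Per the labels' protocols, RNA came from 50 mg of liver by Trizol, and the library kit is named there as Illumina's DNA Sample Kit. All libraries carry lane 4 in their descriptions, and the HA numbers there are not explained. They run from 580 to 584 in p53+/+ libraries 1 to 5. In p53-/- libraries 6, 7, 8, 10, 11 and 12 they are 406, 407, 411, 573, 587 and 588. The lower numbers are thus found only in p53-/- libraries, and whether they mark a batch is not known. The authors deposited whole-number counts for each mature miRNA of each hairpin. The submitters' processing notes name GRCm38 and limma, while aligner and counter were not given in the sources used here. A second table by the authors holds CPM, scaled over all entries of their table. The table had 1418 entries for 1281 names, and where a name had several hairpins the highest count was taken. The 2 entries of miR-30c-5p differed by at most 0.0263%. Pairs of libraries of one genotype differed far beyond sampling noise, with chi-square per degree of freedom at 116 or above.

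Genotypes were compared with the quasi-likelihood F-test of edgeR 4.0.16 (R 4.3.3; TMM scaling and filterByExpr) over 388 miRNAs that held 99.98% of counts, with Benjamini-Hochberg adjustment and a threshold of 0.05. For single miRNAs, standard errors and 95% intervals were computed from the fold change and the F statistic of that test. Arm ratios, log2((3p + 0.5)/(5p + 0.5)), were compared with limma 3.58.1 over 124 hairpins. DESeq2 1.42.0 gave an adjusted p for 250 miRNAs. Single values were also compared by exact permutation over all 462 splits. Scripts were tested on simulated data with changes larger than those of the members. That test therefore does not show how often changes of the size seen here would be called. The members and lists were chosen with earlier results of these data known. Besides the members, the text names the miRNAs that share a member's seed, the 3 closest to the 5p total and the miR-29 arms, and any other name was chosen after its values were seen. Alternatives were other scalings, tools and filters, summed hairpin copies, the deposited CPM, and left-out libraries. Genotypes were not checked on Trp53, which a miRNA table does not hold.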

Additional observations from a re-analysis of the deposited data

How the results depend on the processing

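Over 397 alternative values of the member fold changes, arm ratios, counts of calls and family share, 383 kept direction and side of the threshold, or moved by less than the spread. These 383 include counts of calls that stayed at 0. They also include the move of miR-30e-5p from -0.76 to -0.35 without p53+/+ libraries 1 and 2. The total is therefore no measure of how stable the fold changes are. DESeq2 called 2 members lower in place of 0 in edgeR, miR-30c-5p (-0.53) and miR-30e-5p (-0.80). For members near 0 the sign turned. miR-30d-5p, at 0.03 with all libraries, was at -0.026 with hairpin copies summed, -0.009 in limma on the authors' deposited CPM and -0.041 without p53+/+ libraries 1 and 2, and ran from -0.084 to 0.078 with a library left out. With a library left out, miR-30a-3p ran from -0.19 to 0.01 (0.005 without p53-/- library 11) and miR-30b-5p from -0.20 to 0.03 (0.035 without p53-/- library 11). The Mir30e arm ratio turned to -0.13 without p53+/+ libraries 1 and 2. The cause was not tested. With a library left out, no member passed in edgeR, and miR-30c-5p ran from -0.60 to -0.42 and miR-30e-5p from -0.95 to -0.59. With only p53-/- libraries whose HA number exceeds 500, miR-30b-5p was at -0.38, miR-30a-3p at -0.15, miR-30d-5p at 0.10, miR-30c-5p at -0.65 and miR-30e-5p at -0.70, and none passed in edgeR. After the data were seen, arm ratios were compared over the same libraries, and none was called in limma. The log2 differences were 0.96 for Mir30c-1, 0.93 for Mir30c-2, 0.60 for Mir30b, 0.28 for Mir30e, 0.10 for Mir30a and -0.50 for Mir30d. With all libraries the Mir30b difference was 0.375 (adjusted p = 0.392 in limma). The family share without p53+/+ libraries 1 and 2 (-0.66 percentage points) was also compared after the data were seen.

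No paired analysis was possible because replicate numbers run across both genotypes and none is shared. Depth limits miR-30d-3p most, with 10 to 55 reads a library, and reads carry no known molecular identifiers, so the Wilson interval and the limit from a count of 0 reflect counting error alone.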

Other observations

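miR-30b-3p, the 3p strand of Mir30b, is in the table but was not among the members, and it was looked at after values were seen. It stood at 37.7, 33.4, 35.0, 50.0 and 36.9 CPM in p53+/+ libraries 1 to 5 and at 41.7 to 47.9 CPM with a median of 45.1 in p53-/- libraries. Each p53-/- library exceeded the p53+/+ median, but p53+/+ library 4 was the highest of all. The log2 difference was 0.21 (standard error 0.16, adjusted p = 0.529 in edgeR). Its count was 15.3 ± 2.55% of miR-30b-5p in p53+/+ (SD, n = 5) and 20.4 ± 6.07% in p53-/- livers (SD, n = 6), with the highest ratio, 29.8%, in p53-/- library 11, where miR-30b-5p was lowest.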
